A study of Chlamydomonas reinhardtii with 9 samples.

Results

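Thioredoxins, glutaredoxins and the enzymes that remove peroxides were followed in 3 strains of the unicellular green alga Chlamydomonas reinhardtii that differ at CEHC1, a gene that the series links to the copper response regulator CRR1. The genes were taken by symbol. Every gene whose symbol begins with TRX, NTR, GRX, PRX, APX, GPX, CAT, GST, MSRA, MSRB, GSH, MDAR or DHAR was included and superoxide dismutases were left out, which gave 50 of the 17609 gene models in the table. All 50 averaged 1 FPKM or more across the 9 libraries, the minimum for testing. They are 9 thioredoxins (TRX), 4 thioredoxin reductases (NTR), 6 glutaredoxins (GRX), 2 enzymes of glutathione synthesis (GSH), 7 peroxiredoxins (PRX), 5 glutathione peroxidases (GPX), 1 ascorbate peroxidase (APX), 1 monodehydroascorbate reductase (MDAR), 2 catalases (CAT), 4 glutathione S-transferases (GST), 5 methionine sulfoxide reductases of type A (MSRA) and 4 of type B (MSRB). No symbol in the table began with DHAR.

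The strains were B6, with the wild-type CEHC1 gene (wild type), B6-F, with the cehc1-1 mutation (mutant), and B6-F_resc, the mutant rescued by transformation with the wild-type gene (rescued strain). Each was grown as 3 cultures, aerobically in TAP medium with 14 h light and 10 h dark each day, and cells were taken 6 h after lights on. There is 1 mutant strain and 1 rescued strain. Effects of the mutation or of the restored gene therefore cannot be told apart from other properties of those strains. Levels are FPKM, fragments per kilobase of transcript scaled to the fragments of the library, as deposited by the authors for each library. Differences are on the log2(FPKM + 1) scale, which understates the change of genes with low FPKM, and adjusted p-values are from limma over all 11360 genes tested. A gene is said to be called when the adjusted p was under 0.05 and the difference was at least 1 in either direction. The verbs rose and fell are used for an adjusted p under 0.05 whatever the size of the difference.

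Thioredoxins are small proteins that reduce disulfides in other proteins. In the chloroplast they take electrons from ferredoxin through ferredoxin-thioredoxin reductase and so switch carbon fixation on in the light, and in the cytosol and mitochondria they take electrons from NADPH through thioredoxin reductases. Peroxiredoxins and glutathione peroxidases reduce peroxides with electrons from thioredoxin or glutathione, ascorbate peroxidase does so with ascorbate, and catalase needs no electron donor. Methionine sulfoxide reductases repair oxidized methionine.

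The targeted gene CEHC1 (Cre01.g005900_4532) was at 9.10, 7.07 and 9.77 FPKM in wild-type cultures, 17.4, 18.0 and 16.2 in mutant cultures and 26.2, 25.4 and 27.9 in rescued cultures. What cehc1-1 changes in the gene is not described in the labels, and the level cannot check the genotype. The sum of FPKM over all genes was 970073 to 1108532 per wild-type library, 592929 to 645234 per mutant library and 888153 to 1002223 per rescued library, and the 100 highest genes held 61.4% to 62.4%, 54.3% to 55.7% and 61.0% to 61.6% of it. The number of reads was not given, so the depth behind each value is unknown. The median difference of all tested genes between mutant and wild type was -0.13 as deposited, -0.01 after rescaling by median ratios and -0.06 after quantile normalization.

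Most of the 50 genes were lower in the mutant, by modest amounts. Of these, 42 fell and 1, the thioredoxin reductase NTR2, rose; over all tested genes 40.5% fell and 25.8% rose. With the minimum difference, 7 were called lower (TRXF2, PRX3, PRX5, PRX6, GPX3, MSRB1A and MSRB4) and 1 higher, where 4.80% of all tested genes were called lower and 4.60% higher. The median difference of the 50 was -0.53, which is -0.40 relative to the median of all tested genes. Every mutant library lay below every wild-type library for 43 of the 50 genes, and this held for 43.5% of all tested genes.

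Much of this shift was shared by genes of like abundance. Of the 50, 33 had a mean of 10 to 100 FPKM, and their median difference of -0.43 stood beside -0.42 for all 3083 tested genes in that range. The 8 genes at 100 to 1000 FPKM had a median of -0.86, against -0.73 for all 504 genes there, and the 7 below 10 FPKM had -0.44, against 0.04 for all 7607. PRX1 and PRX2, the 2 at 1000 FPKM and over, had -0.98, against -0.75 for all 166 genes there. The difference was below 0 for 2546 of the 3083 tested genes at 10 to 100 FPKM and 468 of the 504 at 100 to 1000. It was below 0 for all 166 at 1000 FPKM and over. What part the overall shift of abundant genes has in the lower values was not tested. PRX6, GPX3 and NTR2 stood farthest from the median of their range.

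**Figure D1:**
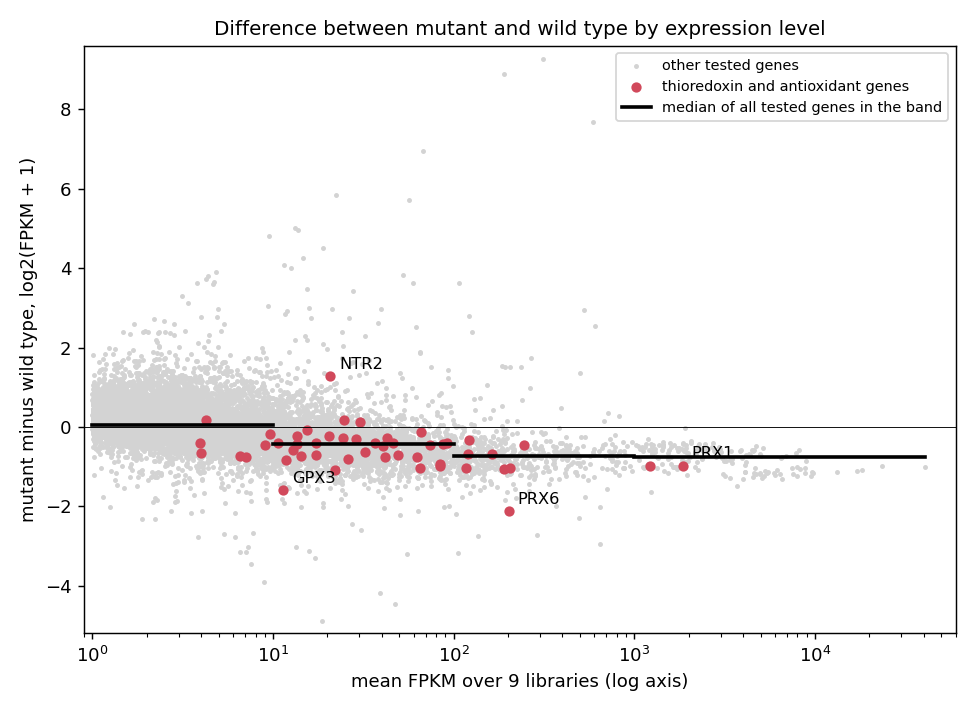
Difference between mutant and wild type in log2(FPKM + 1) against the mean FPKM over 9 libraries on a log axis, with the 50 genes in red, other tested genes in grey and black bars at the median of all tested genes in each range of FPKM. The medians fall from 0.04 below 10 FPKM to -0.73 at 100 to 1000 FPKM, and most red points lie near them, with NTR2 above and PRX6 and GPX3 below.

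The scaling between libraries set how many of the 50 counted as lower. After rescaling by median ratios 35 fell and 3 rose, where 31.9% of all tested genes fell and 31.8% rose, and the median of the 50 was -0.39. After quantile normalization 26 fell and 9 rose, against 33.3% and 25.9% of all tested genes, and the median was -0.20. The sign changed for 14 of the 50 under quantile normalization and for 2 (TRXM1 and TRXZ1) under median ratios. NTR2 was called higher and PRX6 and GPX3 were called lower under all 3 scalings, and no other gene of the 50 was called after rescaling. Of all tested genes 5.88% were called higher and 2.96% lower after median ratios, and 4.28% and 2.09% after quantile normalization. By contrast, the calls of TRXF2, PRX3, PRX5, MSRB1A and MSRB4 were lost under both rescalings.

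**Figure D2:**
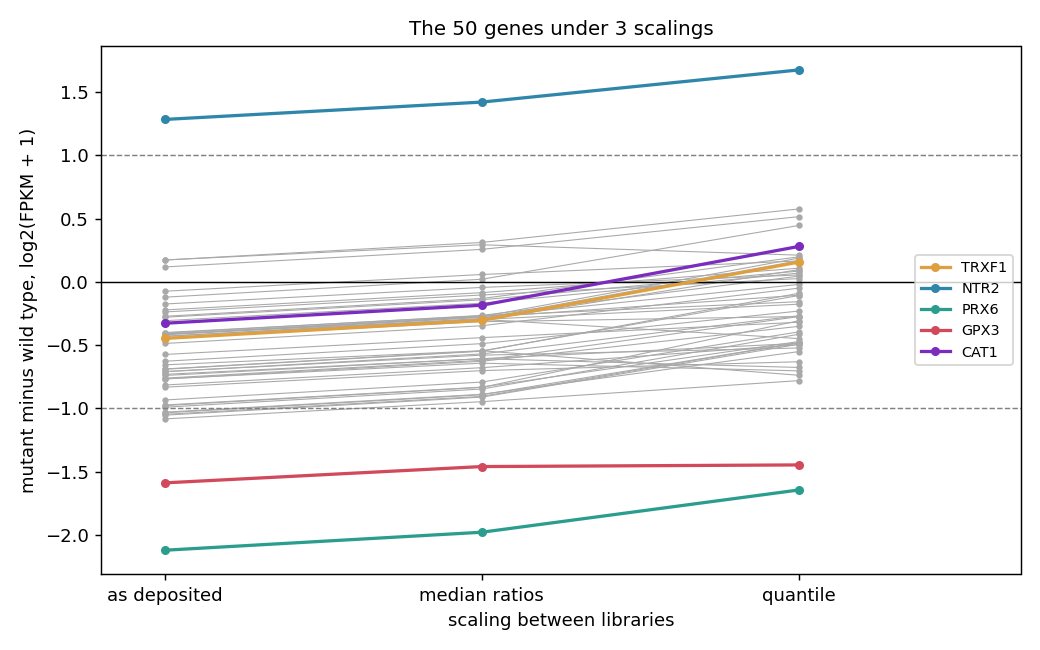
Difference between mutant and wild type in log2(FPKM + 1) for each of the 50 genes as deposited, after rescaling by median ratios and after quantile normalization, with dashed lines at the minimum difference of 1 for a call. NTR2 stays above 1 and PRX6 and GPX3 stay below -1, while CAT1 and TRXF1, shown in colour, cross 0 under quantile normalization.

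Rescued cultures were on the whole higher than mutant cultures. Against the mutant, 36 of the 50 rose and 4 (TRXH2, NTR2, CAT2 and GSTS3) fell, where 33.1% of all tested genes rose and 25.0% fell. The called genes were 6 higher (TRXF2, GRX1, GRX6, PRX6, GPX3 and GST8) and 3 lower (TRXH2, NTR2 and CAT2), where 5.41% of all tested genes were called higher and 3.77% lower. After quantile normalization 25 of the 50 rose and 10 fell, where 31.1% of all tested genes rose and 27.6% fell, and the median of the 50 was 0.24, against 0.50 as deposited. This comparison uses the same mutant libraries as the first. Against the wild type, the median difference of the 50 was -0.12 as deposited and 0.02 after quantile normalization. As deposited 5 rose (TRXM1, NTRC1, GRX6, PRX6 and GST8) and 12 fell, where 18.5% of all tested genes rose and 21.8% fell. After median ratios 8 rose and 10 fell, and after quantile normalization 11 rose and 11 fell. The share of all tested genes is not given for these rescaled counts, so they cannot be read as particular to the 50 genes. Under quantile normalization the difference was below 0 for 24 of the 50 and for 5720 of all 11362 genes tested there. Only GRX6 among the 50 was called higher in the rescued strain than in the wild type and TRXH2 and NTR2 were called lower, where 0.634% of all tested genes were called higher and 1.67% lower.

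**Figure D3:**
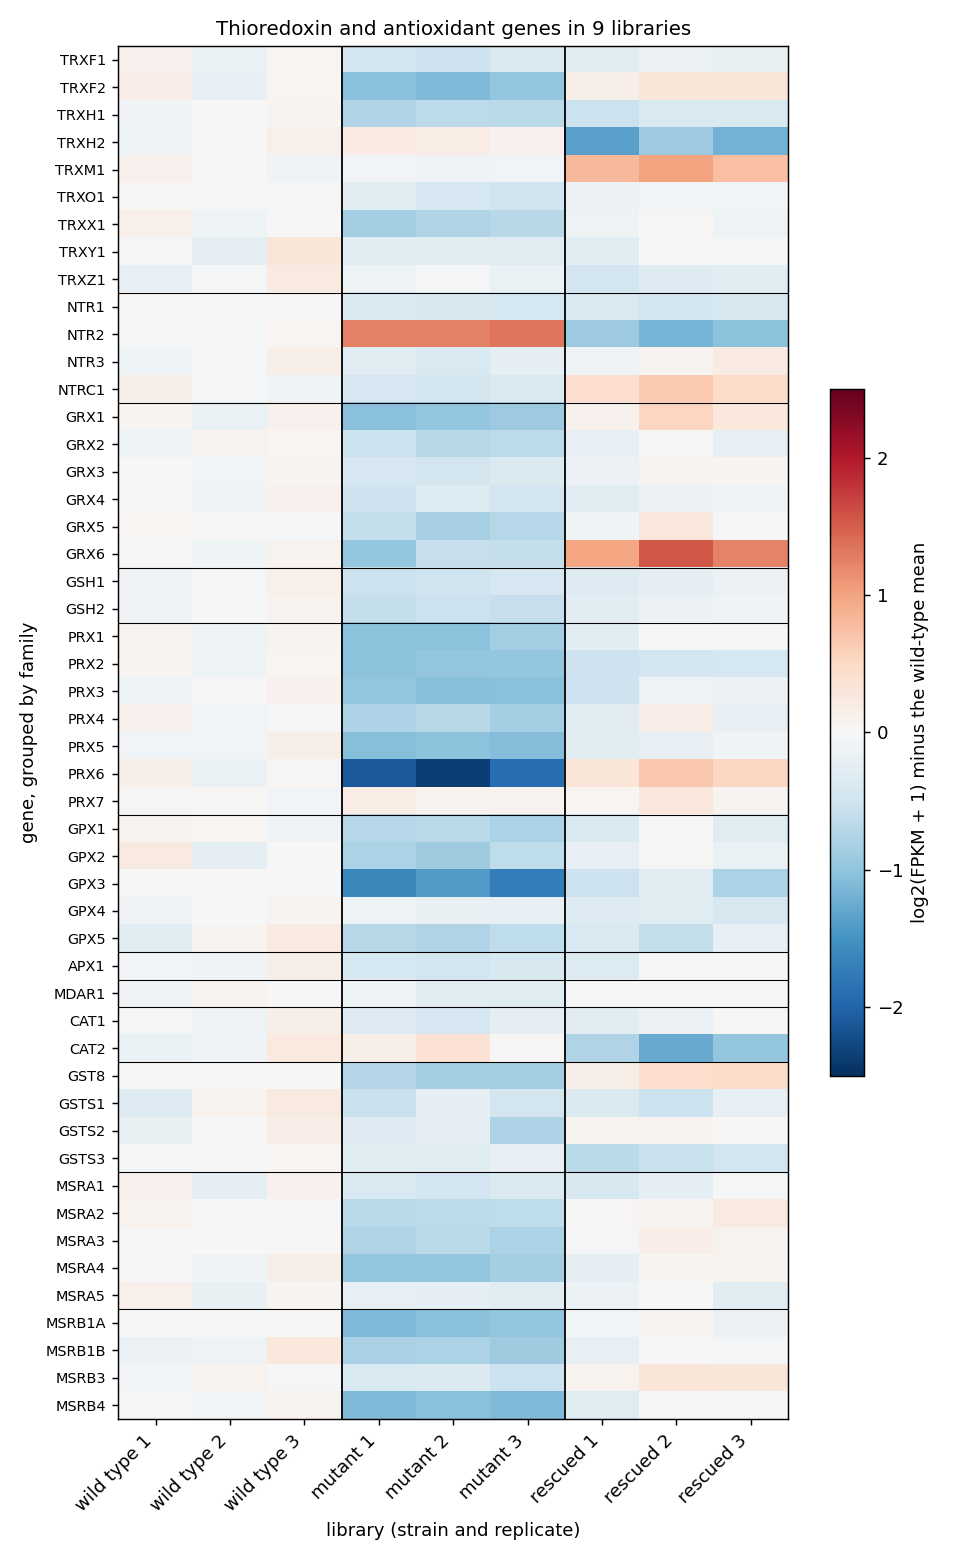
Heat map of log2(FPKM + 1) minus the wild-type mean for the 50 genes (rows, grouped by family) in the 9 libraries (columns). The 3 mutant columns are blue for most genes and red for NTR2, and the rescued columns stand out in red for GRX6 and TRXM1 and in blue for TRXH2, NTR2 and CAT2.

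The thioredoxins together made up 14.1% ± 0.084 (SD, n = 3) of the summed FPKM of the 50 genes in wild-type cultures, 17.1% ± 0.18 in mutant cultures and 14.4% ± 0.22 in rescued cultures. Their own sum was 989 ± 65.7, 662 ± 12.1 and 906 ± 49.4 FPKM in the same order. The larger share in the mutant thus came with a lower sum. In the mutant 5 of the 9 fell as deposited (TRXF1, TRXF2, TRXH1, TRXO1 and TRXX1), where 40.5% of all tested genes fell. Under quantile normalization 2 fell (TRXF2 and TRXX1) and 3 rose (TRXF1, TRXH2 and TRXZ1, at 0.16, 0.58 and 0.45), and TRXO1 lay at 0.04. The shares of all tested genes were then 33.3% and 25.9%. The differences of TRXM1, TRXY1, TRXZ1 and TRXH2 (-0.07, -0.28, -0.12 and 0.17) did not pass the test as deposited.

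The f-type thioredoxins are the chloroplast forms best known for activating enzymes of carbon fixation. TRXF1 (Cre01.g066552_4532), the most abundant thioredoxin transcript here, was at 306, 253 and 292 FPKM in wild-type cultures, 205, 198 and 218 in mutant cultures and 233, 254 and 248 in rescued cultures. Its mutant libraries lay below all others, and mutant and wild type differed by -0.45 (adjusted p 8.2e-04, SE 0.08). TRXF2 (Cre05.g243050_4532) was at 258, 198 and 239 FPKM in wild-type cultures, 111, 107 and 117 in mutant cultures and 253, 283 and 284 in rescued cultures. Mutant libraries were again the lowest, at less than the level of any other library, and rescued and wild-type libraries overlapped. The mutant differed from the wild type by -1.04 (adjusted p 1.3e-05, SE 0.10), and the rescued strain from the mutant by 1.28 (adjusted p 2.6e-06, SE 0.10). The first call was lost without wild-type replicate 1, at -0.95. After quantile normalization both were smaller, at -0.48 and 0.74.

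TRXM1, a chloroplast thioredoxin of the m type, was at 13.1, 11.96 and 11.2 FPKM in wild-type cultures, 11.5, 11.3 and 11.5 in mutant cultures and 21.9, 25.2 and 21.1 in rescued cultures. Wild-type and mutant libraries overlapped and the rescued libraries were all higher, by 0.85 (adjusted p 1.1e-04, SE 0.08) than the wild type and by 0.93 (adjusted p 7.4e-06, SE 0.08) than the mutant, under the minimum for a call. TRXX1, another chloroplast form, was at 81.0, 68.1 and 73.0 FPKM in wild-type cultures, 40.8, 43.4 and 45.5 in mutant cultures and 67.6, 75.3 and 67.3 in rescued cultures, with the mutant libraries lowest and a difference of -0.76 (adjusted p 2.7e-05, SE 0.08) from the wild type. TRXZ1, known in plants as a partner of the chloroplast RNA polymerase, had 73.9 ± 11.5, 67.4 ± 2.95, 57.2 ± 3.56 FPKM (mean ± SD, n = 3) in wild type, mutant and rescued strain. TRXY1, also a chloroplast form, had 27.1 ± 5.48, 21.8 ± 0.303, 24.7 ± 2.34 FPKM in the same order. TRXO1, the mitochondrial form, had 51.6 ± 1.30, 38.8 ± 3.07, 48.4 ± 1.59 FPKM.

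The h-type thioredoxins, found mainly in the cytosol, behaved differently from each other. TRXH1 had 194, 209 and 217 FPKM in wild-type cultures, 122, 131 and 129 in mutant cultures and 143, 157 and 158 in rescued cultures, so as deposited the mutant was lowest and the rescued strain lay between; rescued strain and mutant differed by 0.26 as deposited and by -0.31 after quantile normalization, which turned their order. It differed between mutant and wild type by -0.69 (adjusted p 2.1e-05, SE 0.07), and the rescued strain differed from the wild type by -0.43 (adjusted p 0.0014, SE 0.07); under quantile normalization the mutant difference was -0.09. TRXH2 (Cre12.g554850_4532) had 26.3, 28.9 and 31.8 FPKM in wild-type cultures, 33.7, 33.2 and 31.3 in mutant cultures and 10.6, 14.9 and 12.1 in rescued cultures. Here wild type and mutant overlapped and the rescued libraries were lower than all others. The rescued strain differed from the mutant by -1.32 (adjusted p 5.0e-06, SE 0.11) and from the wild type by -1.15 (adjusted p 1.1e-04, SE 0.11), while mutant and wild type differed by 0.17 (adjusted p 0.197, SE 0.11); that difference passed the test after median ratios (0.31) and quantile normalization (0.58). Quantile normalization gave -0.998 for rescued strain against wild type, just under the minimum.

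NTR2 (Cre02.g098850_4532), a thioredoxin reductase that uses NADPH, was the exception in the mutant. It had 15.4, 15.3 and 16.2 FPKM in wild-type cultures, 38.8, 38.6 and 41.1 in mutant cultures and 7.90, 6.39 and 7.16 in rescued cultures. The 3 strains did not overlap, with the mutant highest and the rescued strain lowest. The mutant level was 2.53 times that of the wild type, a difference of 1.28 (adjusted p 1.2e-06, SE 0.08). The rescued strain differed from the mutant by -2.32 (adjusted p 1.1e-08, SE 0.08) and from the wild type by -1.03 (adjusted p 2.2e-05, SE 0.08). The last of these lay near the minimum, and was -0.98 after median ratios, -0.90 after quantile normalization and -0.96 without rescued replicate 2.

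The other reductases went the opposite way in the mutant. NTRC1 (Cre01.g054150_4532), a chloroplast enzyme that joins a reductase and a thioredoxin in 1 protein and reduces 2-Cys peroxiredoxins, was at 38.4, 33.3 and 31.8 FPKM in wild-type cultures, 25.5, 24.6 and 26.6 in mutant cultures and 46.4, 54.7 and 48.4 in rescued cultures. The mutant libraries were lowest and the rescued libraries highest, without overlap. Mutant and wild type differed by -0.41 (adjusted p 0.0020, SE 0.09) and rescued strain and wild type by 0.52 (adjusted p 0.0016, SE 0.09); under quantile normalization the first was -0.02 and the second 0.66. NTR1 had 12.9 ± 0.476, 9.52 ± 0.245, 9.43 ± 0.261 FPKM and NTR3 30.4 ± 2.84, 24.3 ± 1.23, 31.8 ± 3.50 FPKM (mean ± SD, n = 3) in wild type, mutant and rescued strain. Both fell in the mutant, with differences of -0.40 and -0.31, and NTR3 changed sign to 0.07 under quantile normalization. The 4 reductase genes summed to 93.4 ± 2.35 FPKM (SD, n = 3) in wild-type cultures, 98.9 ± 3.30 in mutant cultures and 98.2 ± 5.38 in rescued cultures. Their share of all FPKM in a library was 0.00896% ± 0.00040, 0.0160% ± 0.00015 and 0.0102% ± 0.00019 in the same order. Of the summed FPKM of the 50 genes they held 1.34% ± 0.051, 2.55% ± 0.034 and 1.56% ± 0.023. Both shares were thus highest in the mutant, whose libraries had the lowest total FPKM.

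Glutaredoxins reduce disulfides with electrons from glutathione, and those with a single active-site cysteine also carry iron-sulfur clusters. All 6 fell in the mutant and all 6 rose in the rescued strain against the mutant. Of all tested genes 40.5% fell in the first comparison and 33.1% rose in the second. After quantile normalization 5 fell and GRX3 (0.19) rose in the mutant, where 33.3% of all tested genes fell and 25.9% rose. Against the mutant GRX3 then turned to -0.03 in the rescued strain. GRX1 (Cre12.g513750_4532), a dithiol glutaredoxin, was at 95.0, 80.6 and 98.3 FPKM in wild-type cultures, 43.8, 45.8 and 48.0 in mutant cultures and 98.0, 133 and 109 in rescued cultures. The mutant libraries stood apart below the other 6, which overlapped. Its difference was -0.97 (adjusted p 4.0e-05, SE 0.11) between mutant and wild type, and passed the minimum without wild-type replicate 2 (-1.06) or without mutant replicate 3 (-1.01). This difference was -0.83 after median ratios and -0.47 after quantile normalization. Between rescued strain and mutant it was 1.28 (adjusted p 7.0e-06, SE 0.11), and 0.91 after quantile normalization.

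GRX6 (Cre01.g047800_4532), a glutaredoxin of the monothiol group, had 12.7, 11.6 and 13.3 FPKM in wild-type cultures, 5.93, 8.10 and 7.98 in mutant cultures and 25.9, 38.9 and 31.0 in rescued cultures. The rescued libraries were higher than all others and the mutant libraries lower than all others. The rescued strain was higher than the mutant by 1.97 (adjusted p 1.9e-06, SE 0.15) and also exceeded the wild type, by 1.26 (adjusted p 2.4e-04, SE 0.15), at 2.54 times its level. The mutant differed from the wild type by -0.71 (adjusted p 0.0015, SE 0.15). These signs held under both rescalings, with 1.31 and 1.37 for rescued strain against wild type.

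GRX3, a chloroplast monothiol glutaredoxin and the most abundant of the family, was at 101, 95.3 and 106 FPKM in wild-type cultures, 74.8, 73.0 and 77.6 in mutant cultures and 91.2, 107 and 105 in rescued cultures. Mutant libraries were lowest as deposited, with a difference of -0.42 (adjusted p 8.5e-04, SE 0.08), and rescued and wild-type libraries overlapped. GRX2, GRX4 and GRX5 fell in the mutant, with differences of -0.63, -0.44 and -0.71.

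Glutathione itself is made in 2 steps. GSH1, gamma-glutamylcysteine synthetase, had 44.6, 46.4 and 51.5 FPKM in wild-type cultures, 32.3, 33.1 and 35.3 in mutant cultures and 37.7, 40.4 and 42.9 in rescued cultures. Mutant libraries were lowest, and the rescued libraries lay between them and the wild type. The mutant difference was -0.49 (adjusted p 3.2e-04, SE 0.08) and that of the rescued strain from the wild type -0.23 (adjusted p 0.039, SE 0.08); quantile normalization gave -0.05 and -0.04. GSH2, glutathione synthetase, had 15.3 ± 0.979, 9.94 ± 0.215, 13.5 ± 0.807 FPKM (mean ± SD, n = 3) in wild type, mutant and rescued strain and fell in the mutant, with a difference of -0.57 (adjusted p 7.0e-05).

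Peroxiredoxins were the largest family by transcript level. They held 65.2% ± 1.1 (SD, n = 3) of the summed FPKM of the 50 genes in wild-type cultures, 58.0% ± 0.65 in mutant cultures and 63.5% ± 0.27 in rescued cultures, and the mutant values lay below all others. Per library, the 7 genes held 0.428% to 0.452% of all FPKM in wild-type cultures, 0.358% to 0.372% in mutant cultures and 0.410% to 0.424% in rescued cultures. In the mutant 6 of the 7 fell, also under both rescalings. Among all tested genes 40.5% fell as deposited, 31.9% after median ratios and 33.3% after quantile normalization. PRX7 was the seventh, with 28.3 ± 1.05, 30.8 ± 1.49, 31.3 ± 3.02 FPKM in wild type, mutant and rescued strain; it rose under both rescalings.

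PRX6 (Cre10.g422300_4532) had the largest difference of the 50 genes between mutant and wild type. It was at 253, 202 and 231 FPKM in wild-type cultures, 52.1, 43.6 and 60.4 in mutant cultures and 283, 363 and 329 in rescued cultures. The mutant libraries were far below the other 6, and the rescued libraries were above all wild-type libraries. The mutant level was 0.227 times that of the wild type, a difference of -2.12 (adjusted p 1.4e-06, SE 0.13). The rescued strain was higher than the mutant by 2.62 (adjusted p 2.3e-07, SE 0.13) and also exceeded the wild type, by 0.50 (adjusted p 0.013, SE 0.13). After quantile normalization these were -1.65, 2.20 and 0.56.

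PRX1 (Cre06.g257601_4532), the abundant 2-Cys peroxiredoxin of the chloroplast, had the highest level of all 50 genes. It was at 2385, 2073 and 2370.0 FPKM in wild-type cultures, 1111, 1115 and 1235 in mutant cultures and 1902, 2272 and 2186 in rescued cultures. Mutant libraries were lowest and the other strains overlapped. Mutant and wild type differed by -0.98 (adjusted p 1.4e-05, SE 0.09), just under the minimum. The minimum was passed without wild-type replicate 2 (-1.04) or mutant replicate 3 (-1.03), while quantile normalization gave -0.31. PRX2, also a 2-Cys peroxiredoxin, was at 1737, 1524 and 1709 FPKM in wild-type cultures, 814, 830.1 and 851 in mutant cultures and 1157, 1205 and 1223 in rescued cultures. As deposited its 3 strains did not overlap, and the rescued strain lay between the others, -0.47 (adjusted p 0.0011, SE 0.07) from the wild type. The mutant difference of PRX2 was -0.99 (adjusted p 3.6e-06, SE 0.07), and -1.05 and -1.01 without the same 2 libraries. After quantile normalization it was -0.41, and rescued strain and mutant differed by 0.07 (adjusted p 0.220) where they differed by 0.52 as deposited.

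PRX3 and PRX5 were called lower in the mutant at close to the minimum. PRX3 (Cre10.g449550_4532) had 77.3, 84.7 and 89.7 FPKM in wild-type cultures, 42.2, 39.3 and 39.9 in mutant cultures and 58.0, 77.1 and 75.6 in rescued cultures, a difference of -1.03 (adjusted p 2.0e-05, SE 0.11). PRX5 (Cre01.g014350_4532) had 232, 231 and 267 FPKM in wild-type cultures, 116, 119 and 114 in mutant cultures and 198, 209 and 228 in rescued cultures, a difference of -1.05 (adjusted p 4.0e-06, SE 0.08). In both, the 3 strains did not overlap and the rescued libraries lay below the wild-type libraries, with rescued replicate 1 the lowest of them. Both calls were lost without wild-type replicate 3, at -0.98 and -0.99. PRX4 fell in the mutant, with a difference of -0.77 (adjusted p 1.6e-04), and was at 49.6 ± 3.13, 28.7 ± 1.51, 46.4 ± 8.28 FPKM in wild type, mutant and rescued strain.

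**Figure D4:**
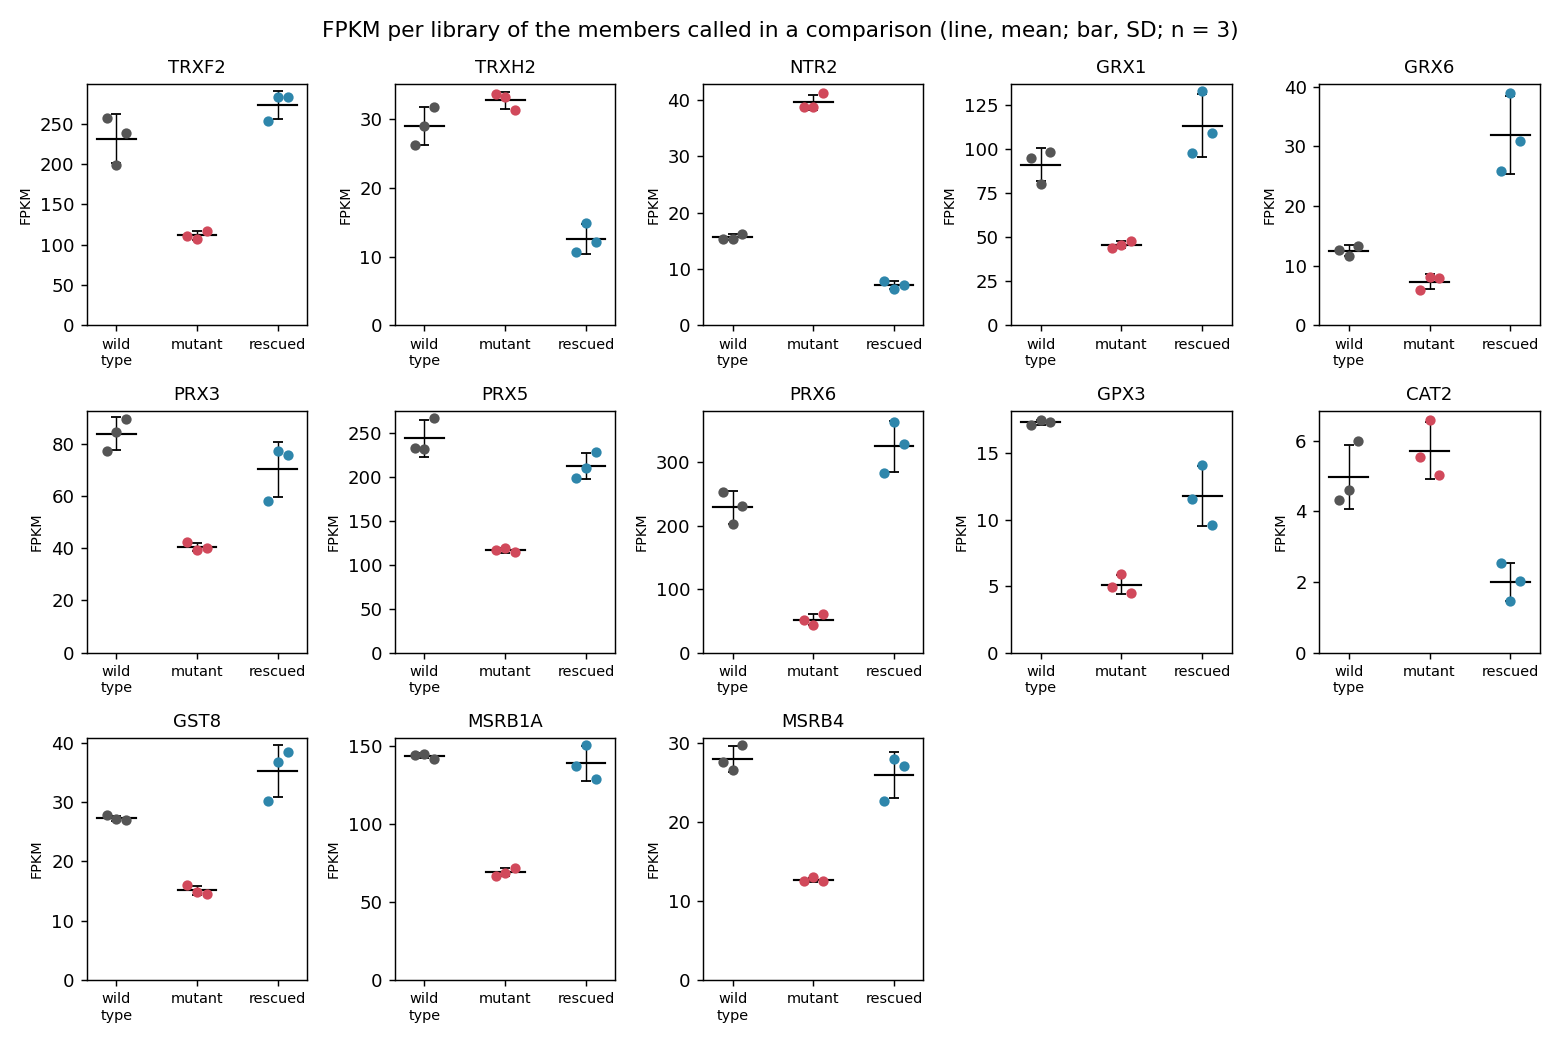
FPKM of each library (points) with mean and SD (n = 3) in the 3 strains for the 13 genes called in at least 1 comparison; each axis starts at 0. By mean, the mutant is lowest for TRXF2, GRX1, GRX6, PRX3, PRX5, PRX6, GPX3, GST8, MSRB1A and MSRB4 and highest for TRXH2, NTR2 and CAT2. The rescued strain is lowest for TRXH2, NTR2 and CAT2 and highest for TRXF2, GRX1, GRX6, PRX6 and GST8.

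All 5 glutathione peroxidases fell in the mutant as deposited, and 3 of them (GPX1, GPX2 and GPX3) under quantile normalization, where GPX4 changed sign to 0.05. The shares of all tested genes that fell were 40.5% as deposited and 33.3% under quantile normalization. GPX3 (Cre03.g197750_4532) had 17.1, 17.5 and 17.3 FPKM in wild-type cultures, 4.96, 5.88 and 4.51 in mutant cultures and 11.6, 14.1 and 9.595 in rescued cultures. The 3 strains did not overlap, with the mutant lowest and the rescued strain in between. The mutant level was 0.295 times that of the wild type, a difference of -1.59 (adjusted p 4.5e-06, SE 0.12). The rescued strain was higher than the mutant by 1.05 (adjusted p 5.2e-05, SE 0.12) and differed from the wild type by -0.54 (adjusted p 0.0071, SE 0.12). The call against the mutant was lost without mutant replicate 3 (0.98) or rescued replicate 2 (0.92), after median ratios (0.98) and with a pseudocount of 5 (0.72).

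GPX5 (Cre10.g458450_4532), also known as GPXH and used in this alga as a reporter of singlet oxygen, was the most abundant of the family. It was at 123, 157 and 173 FPKM in wild-type cultures, 92.4, 88.6 and 96.6 in mutant cultures and 114, 98.6 and 129.6 in rescued cultures. Mutant libraries were lowest and the rescued libraries overlapped the wild type, from which they differed by -0.40 (adjusted p 0.033, SE 0.13). Mutant and wild type differed by -0.69 (adjusted p 8.5e-04, SE 0.13), and by -0.11 after quantile normalization. GPX1 and GPX2, which are selenoproteins in this alga, were at 8.21 ± 0.567, 4.54 ± 0.223, 6.90 ± 1.08 and 8.72 ± 1.57, 4.68 ± 0.511, 7.92 ± 0.817 FPKM (mean ± SD, n = 3) in wild type, mutant and rescued strain. They fell in the mutant, with differences of -0.73 and -0.77.

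In the ascorbate and catalase branches the 1 called gene was CAT2, lower in the rescued strain than in the mutant. APX1, ascorbate peroxidase, was at 94.1, 92.7 and 108 FPKM in wild-type cultures, 72.2, 71.5 and 73.8 in mutant cultures and 77.2, 95.2 and 97.2 in rescued cultures. Its mutant libraries were lowest as deposited, with a difference of -0.43 (adjusted p 0.0026, SE 0.10) that became 0.17 after quantile normalization. MDAR1, which regenerates ascorbate, was at 20.0, 22.6 and 21.7 FPKM in wild-type cultures, 19.7, 17.7 and 17.3 in mutant cultures and 21.2, 21.7 and 21.0 in rescued cultures. Mutant libraries lay just below the others, with a difference of -0.22 (adjusted p 0.022, SE 0.07) as deposited and 0.11 after quantile normalization.

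CAT1 (Cre09.g417150_4532), the main catalase transcript, was at 132, 124 and 149 FPKM in wild-type cultures, 108, 99.8 and 114 in mutant cultures and 111, 121 and 138 in rescued cultures. The mutant libraries lay below the wild type and overlapped the rescued strain. Its difference of -0.33 (adjusted p 0.014, SE 0.10) as deposited became 0.28 after quantile normalization. CAT2 (Cre01.g045700_4532) was at 4.32, 4.61 and 5.999 FPKM in wild-type cultures, 5.54, 6.59 and 5.03 in mutant cultures and 2.53, 1.46 and 2.04 in rescued cultures. Wild type and mutant overlapped, and the rescued libraries were lower than all others. The rescued strain differed from the mutant by -1.17 (adjusted p 9.0e-05, SE 0.15) and from the wild type by -0.99 (adjusted p 8.5e-04, SE 0.15). A pseudocount of 5 gave -0.61 for the first, below the minimum. The second value lies at the minimum and passed it without wild-type replicate 1 (-1.07), wild-type replicate 2 (-1.03), rescued replicate 1 (-1.12) or rescued replicate 3 (-1.01).

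Glutathione S-transferases attach glutathione to other molecules. All 4 fell in the mutant as deposited, but after median ratios only GST8 of the 4 did, and under quantile normalization GSTS2 and GSTS3 changed sign. The shares of all tested genes that fell were 40.5% as deposited and 31.9% after median ratios. GST8 (Cre12.g508850_4532) was at 27.8, 27.1 and 26.9 FPKM in wild-type cultures, 16.0, 14.8 and 14.5 in mutant cultures and 30.2, 36.8 and 38.5 in rescued cultures. The 3 strains did not overlap, with the mutant lowest and the rescued strain highest. The rescued strain was higher than the mutant by 1.16 (adjusted p 2.8e-06, SE 0.09) and than the wild type by 0.35 (adjusted p 0.012, SE 0.09), and the mutant differed from the wild type by -0.82 (adjusted p 2.9e-05, SE 0.09). The first of these was 0.99 after quantile normalization. GSTS1 (Cre16.g688550_4532), a further reporter of singlet oxygen in this alga, was at 16.4, 21.9 and 24.3 FPKM in wild-type cultures, 13.6, 17.3 and 14.8 in mutant cultures and 15.8, 13.8 and 17.7 in rescued cultures. Its strains overlapped, and mutant and wild type differed by -0.42 (adjusted p 0.026, SE 0.14).

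GSTS2, the most abundant of the 4, was at 70.2, 80.5 and 89.3 FPKM in wild-type cultures, 63.4, 67.4 and 46.2 in mutant cultures and 84.0, 84.0 and 80.4 in rescued cultures. The mutant libraries lay below the rest, with mutant replicate 3 the lowest, and mutant and wild-type cultures differed by -0.44 (adjusted p 0.013, SE 0.13). GSTS3 had 49.3, 50.9 and 53.2 FPKM in wild-type cultures, 41.3, 41.3 and 43.9 in mutant cultures and 31.6, 34.2 and 36.6 in rescued cultures. Here, as deposited, the rescued strain was lowest and the mutant lay between. The rescued strain differed from the wild type by -0.57 (adjusted p 3.7e-04, SE 0.07) and from the mutant by -0.30 (adjusted p 0.0050, SE 0.07). After quantile normalization the mutant was above the wild type, by 0.20 (adjusted p 0.013), and rescued strain and mutant differed by -0.58.

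Methionine sulfoxide reductases fell in the mutant in 8 of 9 cases, 4 of 5 of type A and 4 of 4 of type B. After quantile normalization 4 and 3 fell. Among all tested genes 40.5% fell as deposited and 33.3% after quantile normalization. Types A and B act on the 2 stereoisomers of methionine sulfoxide. MSRA4 (Cre01.g012150_4532), the most abundant of type A, was at 97.7, 93.4 and 112 FPKM in wild-type cultures, 50.9, 50.7 and 55.4 in mutant cultures and 86.2, 105 and 108 in rescued cultures. Mutant libraries were lowest and the other strains overlapped, with differences of -0.93 (adjusted p 2.4e-05, SE 0.10) from wild type to mutant and 0.91 (adjusted p 3.2e-05, SE 0.10) from mutant to rescued strain. The second passed the minimum without rescued replicate 1 (1.01). After quantile normalization the differences were -0.40 and 0.53. MSRA2, MSRA3 and MSRA1, the last a selenoprotein in this alga, fell in the mutant, with differences of -0.66, -0.74 and -0.41; MSRA5 (-0.24, adjusted p 0.052) did not pass the test.

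MSRB1A (Cre14.g615000_4532) was at 145, 145 and 142 FPKM in wild-type cultures, 66.8, 68.7 and 71.7 in mutant cultures and 137, 151 and 129 in rescued cultures. Its replicates were close together in the wild type and the mutant, and the mutant libraries stood apart below the rest. Mutant and wild type differed by -1.05 (adjusted p 2.4e-06, SE 0.07), and by -0.91 after median ratios and -0.48 after quantile normalization. The rescued strain was higher than the mutant by 0.997 (adjusted p 1.7e-06, SE 0.07); this lay just under the minimum and passed it without mutant replicate 3 (1.02), rescued replicate 1 (1.01) or rescued replicate 3 (1.05). MSRB4 (Cre03.g195850_4532) was at 27.5, 26.5 and 29.7 FPKM in wild-type cultures, 12.5, 13.0 and 12.5 in mutant cultures and 22.5, 28.0 and 27.0 in rescued cultures. Mutant and wild type did not overlap, and their difference was -1.08 (adjusted p 5.1e-06, SE 0.09). Rescued strain and mutant differed by 0.97 (adjusted p 7.2e-06, SE 0.09), which passed the minimum without rescued replicate 1 (1.06). MSRB1B and MSRB3 fell in the mutant, with differences of -0.83 and -0.43. MSRB1A and MSRB1B lie close together in the reference gene order of assembly Chlamydomonas_reinhardtii_v5.5, and the sources used here do not give how reads shared by related genes were assigned.

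**Figure D5:**
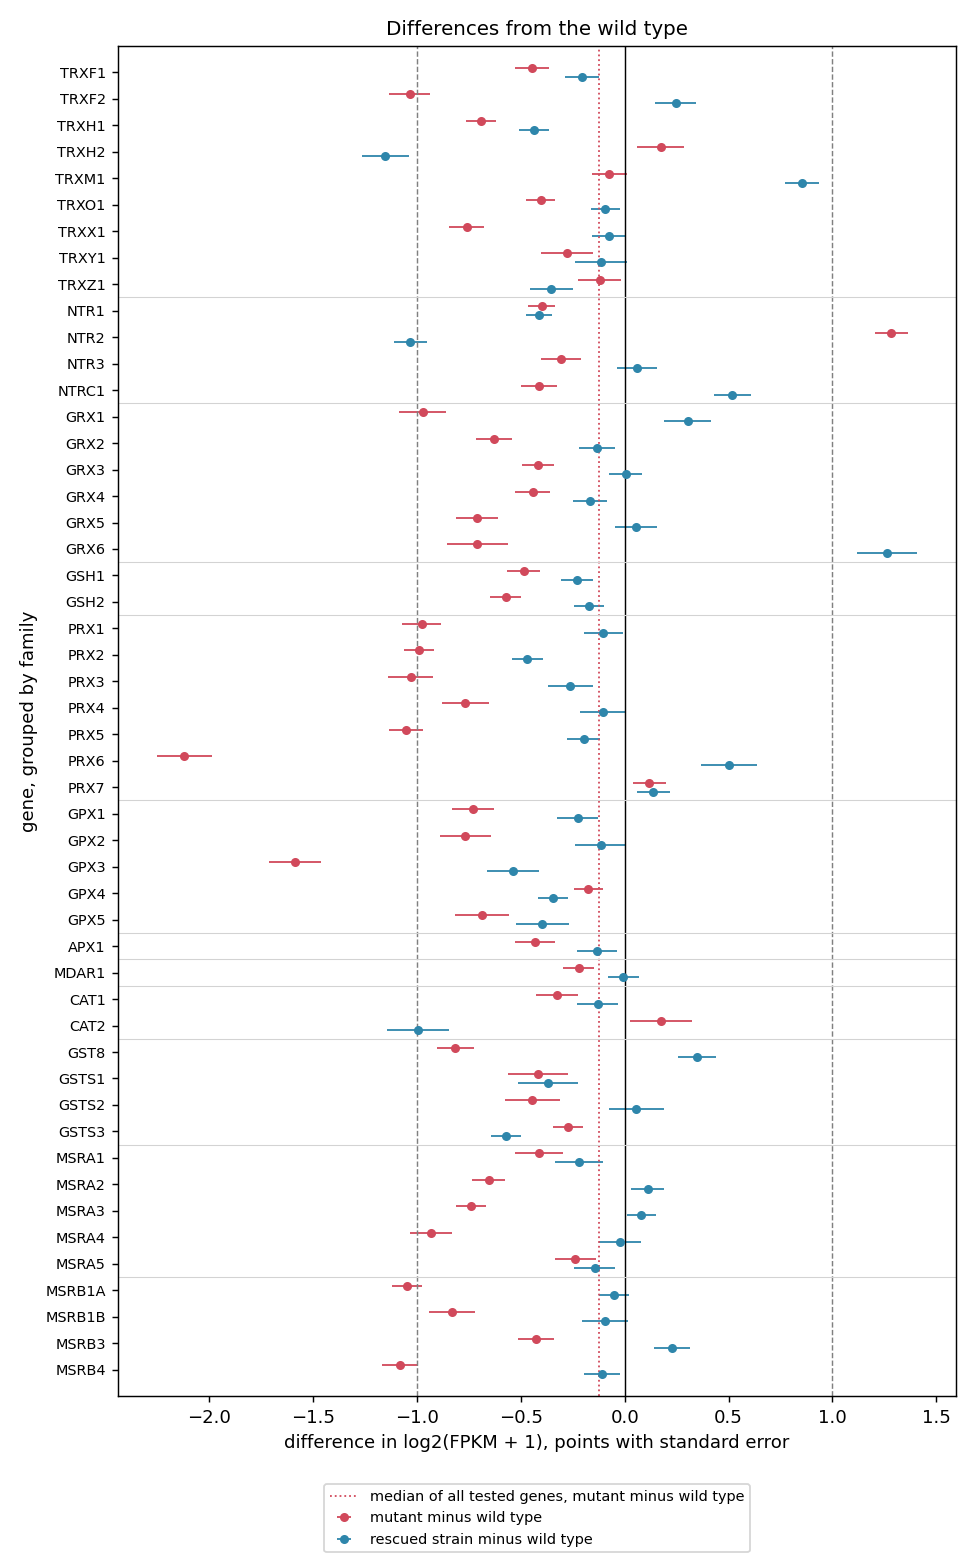
Difference from the wild type in log2(FPKM + 1) with its standard error for the 50 genes, in red for the mutant and in blue for the rescued strain, with dashed lines at -1 and 1 and a dotted line at the median of all tested genes in the mutant (-0.13). Most red points lie between -1.1 and 0 and most blue points lie nearer 0 than the red, with NTR2, TRXH2, CAT2, GRX6 and TRXM1 among the exceptions.

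The genes that feed electrons and substrates to these enzymes were taken from 5 lists of symbols, of which 48 genes were found and 47 tested; FDX2 averaged less than the minimum. In the mutant 33 of the 47 fell and 8 rose, against 40.5% and 25.8% of all tested genes, with a median difference of -0.43 that became -0.06 after quantile normalization. As deposited FDX1 and FDX3 were called, both lower, where 4.80% of all tested genes were called lower and 4.60% higher. After quantile normalization 3 were called higher (AOF1, PDI4 and RB60) and 1, FDX3, lower, where 4.28% and 2.09% of all tested genes were. In the rescued strain 5 of the 47 were called higher than in the mutant and 6 lower, where 5.41% and 3.77% of all tested genes were, and 1, SIR1, was called lower than in the wild type, where 1.67% of all tested genes were. After quantile normalization FDX1, FNR1, RCA1 and VTE5 were no longer called against the mutant, at 0.19, 0.66, 0.59 and 0.95.

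In the ferredoxin-thioredoxin system all 5 tested genes fell in the mutant as deposited, where 40.5% of all tested genes fell. FDX3 (Cre06.g306350_4532), a ferredoxin, was at 62.4, 52.5 and 64.4 FPKM in wild-type cultures, 20.9, 18.9 and 22.1 in mutant cultures and 68.9, 87.1 and 86.2 in rescued cultures, with the mutant libraries far below the rest. It differed by -1.49 (adjusted p 3.7e-06, SE 0.11) from wild type to mutant and by 1.91 (adjusted p 5.0e-07, SE 0.11) from mutant to rescued strain. FDX1, the main photosynthetic ferredoxin, was at 11124 ± 617, 4987 ± 383, 10329 ± 1180.2 FPKM (mean ± SD, n = 3) in wild type, mutant and rescued strain. It differed by -1.16 between mutant and wild type, and by -0.15 after quantile normalization. FNR1, ferredoxin-NADP reductase, was at 1742 ± 156, 917 ± 74.5, 2136 ± 144 FPKM and rose in the rescued strain against the mutant by 1.22. FTR1 and FTRV1, listed as parts of ferredoxin-thioredoxin reductase, fell in the mutant, with differences of -0.42 and -0.75, and by quantile normalization the differences were -0.08 and -0.10.

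Of 10 genes listed for chloroplast proteins controlled through thioredoxin, 8 fell in the mutant and 1 rose as deposited. Among all tested genes 40.5% fell and 25.8% rose. Control by thioredoxin was taken from the list and not tested for each gene. Under quantile normalization GAPA1, GLD2 and MDH5 of the 8 changed sign. RCA1, Rubisco activase, was at 1107 ± 139, 553 ± 42.5, 1191 ± 127 FPKM (mean ± SD, n = 3) in wild type, mutant and rescued strain and rose in the rescued strain against the mutant by 1.103. GLD1, a glucose-6-phosphate dehydrogenase, which supplies NADPH, was the one that rose. It was at 6.83, 8.32 and 10.0 FPKM in wild-type cultures, 14.5, 13.2 and 12.1 in mutant cultures and 6.30, 5.24 and 6.87 in rescued cultures, with the mutant above both others, and differed by 0.61 (adjusted p 0.0020, SE 0.13) between mutant and wild type.

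Of 11 genes of glutathione and cysteine supply, 9 fell in the mutant and SIR1 rose as deposited, where 40.5% of all tested genes fell and 25.8% rose. Under quantile normalization ATS1, ATS2, SAT1 and SIR2 of the 9 changed sign. SIR1 (Cre16.g693202_4532), a sulfite reductase, was at 11.6, 9.65 and 14.2 FPKM in wild-type cultures, 15.4, 16.4 and 18.2 in mutant cultures and 5.55, 3.36 and 3.80 in rescued cultures. The 3 strains did not overlap, with the mutant highest and the rescued strain lowest, the order also seen for NTR2. The rescued strain differed from the mutant by -1.77 (adjusted p 8.1e-06, SE 0.16) and from the wild type by -1.30 (adjusted p 3.5e-04, SE 0.16). Of 8 genes of ascorbate and tocopherol synthesis, 6 fell in the mutant and VTC2, which controls the first committed step to ascorbate, rose by 0.30 (adjusted p 0.038). VTE5, phytol kinase, was higher in the rescued strain than in the mutant by 1.00 (adjusted p 1.9e-06, SE 0.07).

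The last list held enzymes of disulfide formation and of other peroxide handling, 13 genes. In the mutant 5 of them rose and 5 fell as deposited, and 7 rose and 3 fell after quantile normalization. Among all tested genes 25.8% rose and 40.5% fell as deposited, and 25.9% and 33.3% after quantile normalization. The listed genes that rose as deposited were RB60, PDI2 and PDI4, which are protein disulfide isomerases, ERO1 and AOF1. ERO1 is the oxidase that recharges such isomerases in the endoplasmic reticulum. RB60 was at 371, 392 and 420.0 FPKM in wild-type cultures, 506, 559 and 579.8 in mutant cultures and 229, 221 and 236 in rescued cultures. PDI4 was at 37.0, 32.7 and 36.7 FPKM in wild-type cultures, 59.3, 66.4 and 62.0 in mutant cultures and 27.7, 28.7 and 28.4 in rescued cultures. For both the strains did not overlap, with the mutant highest and the rescued strain lowest. The rescued strain differed from the mutant by -1.26 (adjusted p 6.3e-07, SE 0.08) for RB60 and -1.12 (adjusted p 8.6e-07, SE 0.07) for PDI4, and the mutant from the wild type by 0.47 (adjusted p 3.3e-04, SE 0.08) and 0.80 (adjusted p 9.4e-06, SE 0.07). The mutant differences were larger after quantile normalization, at 1.11 and 1.34, past the minimum for a call. PDI2 fell in the rescued strain against the mutant, with a difference of -1.04, and PDI3 and PDI5 fell in the mutant, with differences of -0.69 and -0.98. AOF1, which entered by its symbol and is annotated as an amine oxidase, differed by 0.86 between mutant and wild type. Its rescued strain differed from the mutant by -1.34. SRX1, sulfiredoxin, which repairs overoxidized 2-Cys peroxiredoxins, was at 5.06, 6.38 and 8.27 FPKM in wild-type cultures, 4.10, 4.02 and 5.38 in mutant cultures and 6.79, 8.53 and 5.77 in rescued cultures, and mutant and wild type overlapped, with a difference of -0.45 (adjusted p 0.038, SE 0.17). SAK1, a regulator of the singlet oxygen response, was at 1.70, 2.04 and 1.83 FPKM in wild-type cultures, 1.61, 1.87 and 1.72 in mutant cultures and 1.73, 1.87 and 2.02 in rescued cultures, with strains that overlapped and a mutant difference of -0.06 (adjusted p 0.504, SE 0.08), which became -0.29 and passed the test after quantile normalization.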

How the data were processed

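PolyA RNA of 9 cultures, 3 per strain, was read as 125 bp paired ends, per the labels' protocols; the titles give strain and replicate number. The authors deposited FPKM per library and 1 FPKM value per strain. STAR 2.7.10b and Cuffdiff 2.0.2 are named, with no role, per the submitters' processing notes; no build is named in the sources used here. The authors' strain values lay within 1% of the replicate means for 48, 50 and 49 of the 50 genes in wild type, mutant and rescued strain, and only replicate values were used for results.

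FPKM are not counts, so no count model was used. The 11360 genes averaging 1 FPKM or more (6249 were left out) were transformed to log2(FPKM + 1). Group means over all 9 libraries were fitted by limma (version 3.58.1, under R 4.3.3) with variances moderated along the mean level and Benjamini-Hochberg adjustment over all genes tested. The code was tested on simulated data. FPKM depend on the other genes in a library, so 2 rescalings were tried; the other alternatives are given in the closing section. Cultures were separate, and p-values measure the spread between them. The genes, the 5 lists and the tests were chosen with earlier results of these data known. Genes named with the value of every library were those called in a comparison, the most abundant of each family, the extremes, and GPX5, GSTS1, NTRC1, CAT1, APX1 and PRX1; a few others were chosen after their values were seen. Of the list symbols several are alternative spellings of 1 gene, and 48 of 87 were found. CCP1, a chloroplast carrier in this alga, and AOF1 entered by symbol and were kept in the counts. All 50 genes matched a locus of assembly Chlamydomonas_reinhardtii_v5.5, which was used for gene order only. Plots used matplotlib (3.10.9) under Python (3.11.15).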

Additional observations from a re-analysis of the deposited data

How the results depend on the processing

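Of the 50 genes, 8 were called for mutant against wild type, 9 for rescued strain against mutant and 3 for rescued strain against wild type. Among the partner genes the counts were 2, 11 and 1. For mutant against wild type 4.60% of all tested genes were called higher and 4.80% lower. These shares were 5.41% and 3.77% for rescued strain against mutant, and 0.634% and 1.67% for rescued strain against wild type. For mutant against wild type, rescaling by median ratios gave 3 of the 50 and quantile normalization gave 3, and all 3 are among the 8. In this comparison 5.88% of all tested genes were called higher and 2.96% lower after median ratios. After quantile normalization these shares were 4.28% and 2.09%. Quantile normalization gave 4 partner genes there, 3 higher and 1 lower against 0 higher and 2 lower as deposited by limma. It gave 7 partner genes for rescued strain against mutant, and 1 of the 50 for rescued strain against wild type. The share of all tested genes is not given for the counts of these last 2 comparisons or for those with a pseudocount of 5. A pseudocount of 5 gave 1 of the 50 and 0 partner genes for rescued strain against wild type by limma, where 25 partner genes had an adjusted p under 0.05 with the pseudocount of 1. The same pseudocount ended the calls of MSRB4 (-0.90) and PRX3 (-0.96) in the mutant, of CAT2 (-0.61), GPX3 (0.72) and GST8 (0.995) against the mutant, and of NTR2 (-0.76) and TRXH2 (-0.96) against the wild type. With no minimum difference the counts for the 50 genes were 43, 40 and 17 and for the partner genes 41, 38 and 25. By that rule 25.8% of all tested genes rose and 40.5% fell for mutant against wild type. For rescued strain against mutant 33.1% rose and 25.0% fell, and for rescued strain against wild type 18.5% rose and 21.8% fell. Leaving out 1 library gave 6 to 11, 8 to 12 and 2 to 4 of the 50, and 2 to 4, 9 to 11 and 1 to 2 partner genes. The share of all tested genes was not computed for these fits. The 4 partner genes came without wild-type replicate 2, and the 2 against the wild type without wild-type replicate 2 or rescued replicate 3. Counts under a minimum mean of 5 FPKM, a pseudocount of 0.1, no minimum FPKM, the 2 groups alone and moderation without trend stayed within 1.5 times; CAT2 fell under the minimum mean of 5 FPKM and has no value there.

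Quantile normalization reversed 9 of the 57 single differences followed: in the mutant against the wild type TRXF1 (0.16), APX1 (0.17), GRX3 (0.19), CAT1 (0.28), GSTS2 (0.10) and MDAR1 (0.11), and in the rescued strain against the mutant TRXF1 (-0.32), APX1 (-0.15) and GRX3 (-0.0253). The cause was not tested. Of 1023 recomputed single differences, 968 kept their sign and side of the call, 30 were no longer called and 16 became called.

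The labels give same-numbered replicates nothing in common beyond the number. The correlations of their deviations from the strain means were -0.13 to 0.16 over tested genes, and 6 of 9 libraries correlated best with their own number. Whether the number stands for a shared batch cannot be told from the labels. With the replicate block the counts were 8, 9 and 3 of the 50 genes and 2, 11 and 1 partner genes. FPKM without read numbers give no counting error, so the precision of low genes such as CAT2 and SAK1 rests on the replicates alone.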
